A study of Mus musculus with 8 samples.

Results

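The cytosolic ribosomal protein genes of mouse embryonic stem cells (ESCs) were followed in RNA-seq counts of IPO13+/+ and IPO13-/- cells. They were taken by name, as every row whose symbol is Rpsa or consists of Rpl, Rps or Rplp with a number and at most 1 letter a or x. This gave 76 of the 23420 symbols in the files, 30 of the small subunit and 46 of the large subunit, 3 of which (Rplp0, Rplp1 and Rplp2) form the stalk. The 8 libraries fall into 4 groups of 2, namely IPO13+/+ untreated, IPO13+/+ after 125 µM H2O2, IPO13-/- untreated and IPO13-/- after 125 µM H2O2. Treatment lasted 1 h and was followed by 2 h of recovery. All the cells are of a 129 x C57BL/6 background, come from blastocysts and were grown without feeder cells in medium with LIF, the cytokine that keeps ESCs pluripotent. Each genotype is represented by cells of a single kind in the labels, so a difference between the genotypes cannot be told apart from a difference between the lines used. The labels do not say whether the 2 libraries of a group come from separate cultures, and p-values therefore measure the spread between these libraries only.

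The cytosolic ribosome is built of a small subunit that reads the mRNA and a large subunit that joins amino acids, and each contains most of its proteins in a single copy. The genes of these proteins lie scattered over the chromosomes, yet growing cells make their products in matched amounts, and together they form a large part of all mRNA in dividing cells. Their mRNAs are short and in vertebrates usually begin with a run of C and T bases, the terminal oligopyrimidine tract, through which growth signals set how much of the mRNA is translated. IPO13, also called importin-13, carries proteins into and out of the nucleus. Ribosomal proteins themselves enter the nucleus through importins before they are assembled.

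The stretch around the annotated transcription start was taken from RefSeq (build GRCm38.p6), which held 56 of the 76 genes. It is shown here for members with a pyrimidine run, because the common start of these mRNAs is the sequence feature the genes are best known to share. Each line gives 15 bases before and 15 bases from the annotated start, 5′ to 3′ on the gene's own strand, and the capitals mark the longest run of C and T that touches the 5 bases on either side of the start. The windows lie at chr2:26910792-26910821 (Rpl7a, plus strand), chr7:109519180-109519209 (Rpl27a, plus), chr2:39005117-39005146 (Rpl35, minus), chr17:33955651-33955680 (Rps18, minus), chr4:86857353-86857382 (Rps6, minus), chr11:114668565-114668594 (Rpl38, plus), chr7:141447636-141447665 (Rplp2, plus), chr3:90213634-90213663 (Rps27, minus) and chr2:180257364-180257393 (Rps21, plus). For contrast, the last 2 lines are Rpl11 (chr4:136053379-136053408, minus) and Rps3 (chr7:99483695-99483724, minus), which have only short runs at the annotated start.
Rpl7a: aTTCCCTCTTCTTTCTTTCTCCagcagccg
Rpl27a: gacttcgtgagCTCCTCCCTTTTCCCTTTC
Rpl35: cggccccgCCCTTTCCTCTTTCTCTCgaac
Rps18: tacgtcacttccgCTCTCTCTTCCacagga
Rps6: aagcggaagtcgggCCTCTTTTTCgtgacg
Rpl38: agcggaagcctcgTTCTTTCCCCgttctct
Rplp2: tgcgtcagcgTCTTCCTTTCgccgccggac
Rps27: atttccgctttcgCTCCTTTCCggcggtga
Rps21: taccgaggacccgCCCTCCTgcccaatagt
Rpl11: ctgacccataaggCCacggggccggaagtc
Rps3: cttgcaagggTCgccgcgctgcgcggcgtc

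A run of at least 7 C or T bases touching the start was found in 23 of the 56 genes (41.1%), against 13.4% of 26969 other genes in the same table. The letters CGGAAG, on either strand of the 300-base promoter window, were present in 39 of 56 (69.6%) against 17.1% of the other genes, and GGGCGG in 58.9% against 35.9%. TATAAA, sought on the sense strand 40 to 15 bases before the start, was in none of the 56 windows and in 2.22% of the others. These are matches of letters at annotated starts. Of the well-counted genes, 22 had such a run and 31 did not. In untreated cells the median log2 fold changes of these sets between genotypes were -0.19 and -0.21, and after H2O2 in IPO13-/- cells 0.16 and 0.17.

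The libraries held 60397877 to 73789079 counted reads, and the smallest level told from 0, taken as 3 counts, was 0.0407 to 0.0497 CPM (counts scaled to a common library total). Ipo13 itself gave 4716 to 4928 counts in the 4 IPO13+/+ libraries and 1555 to 1965 in the 4 IPO13-/- libraries, so it was reduced and not absent (log2 fold change -1.44 in untreated cells, SE 0.05, edgeR adjusted p = 9.53e-19). All 15 pluripotency markers were present above 1 CPM, with a summed level of 9563 to 9662 CPM in untreated and 8970 to 8985 in treated IPO13+/+ cells, and of 8322 to 8430 and 8177 to 8273 in IPO13-/- cells. The 8 fibroblast markers summed to 6.44 to 9.44 CPM, with 6 of them under 1 CPM. The 9 primitive endoderm markers, 3 of them under 1 CPM, summed to 208.8 to 239.6 and 187.1 to 193.8 CPM in the IPO13+/+ groups and to 182.6 to 194.3 and 155.4 to 162.1 CPM in the IPO13-/- groups, in the same order. The 8 trophectoderm markers, 2 of them under 1 CPM, summed to 101.7 to 119.5 CPM, and the part of such cells in the results below was not tested.

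Together the 76 genes took 6.81% to 7.88% of all counted reads. Without treatment their share was 7.19% and 7.78% in IPO13+/+ cells, against 6.81% and 7.08% in IPO13-/- cells. After H2O2 it was 7.63% and 7.73% in IPO13+/+ cells, against 7.36% and 7.88% for IPO13-/-. The means were thus 7.48% ± 0.417 (SD, n = 2), 6.94% ± 0.190, 7.68% ± 0.0653 and 7.62% ± 0.367. The untreated IPO13-/- libraries lay below the other 6 libraries, whereas the other 3 groups overlapped. Counting error was small beside this spread, since the 95% Wilson interval of a share reached at most 0.0067 percentage points to either side. With 2 libraries against 2, an exact two-sided permutation test cannot go below p = 0.333.

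Of the 76 genes, 72 had a mean of at least 10000 counts per library, with 16252 to 232313 counts in single libraries. Their mean levels after TMM scaling (a factor per library that sets most genes equal) ran from 273.9 to 2976 CPM with a median of 829.3. Most of these mRNAs were short, as 53 of the 72 had an annotated transcript under 1000 bases, and the median transcript was 777.5 bases with a median coding sequence of 468. Levels of different genes were compared per length. Per kb of the union of annotated exons, the highest were Rplp1 with 3343, Rplp0 with 1794 and Rps4x with 1643 CPM per kb. The annotated union includes rare long models for many of these genes, so the level per kb of coding sequence is also given, a choice made after the data were seen. On that scale the middle of the 72 genes was narrow, with quartiles of 1453 and 2296 CPM per kb, a ratio of 1.58. The highest were the shortest, Rpl41 (25 amino acids) with 11000 CPM per kb and Rpl39 (51 amino acids) with 4965. On this scale reads from the untranslated ends count in full against a very short coding length. Among the other members with the shortest proteins, Rps29 had 3210, Rps28 1809 and Rpl38 1304 CPM per kb of coding sequence. The median was 1943 for the small subunit and 1531 for the large subunit, and Rplp1, Rplp0 and Rplp2, which recruit the translation factors that hydrolyse GTP, had 4878, 3129 and 2097.

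The 4 remaining genes were listed at very low counts, although the ribosome contains their proteins in the same amount as the others. Rpl26 had 1, 1, 0, 0, 1, 0, 0 and 0 counts in the libraries in the order untreated IPO13+/+, treated IPO13+/+, untreated IPO13-/- and treated IPO13-/-. Rpl30 had 131 to 158 counts, Rps27 95 to 176 and Rpl34 523 to 740. All 4 were low in every library, so these values are not a property of a group. Many members have processed pseudogenes or retrocopies, and the share of 100-base windows of the coding sequence that recur exactly in a transcript of another GENCODE gene had a median of 77.2% over 75 genes (Rpl41 is shorter than the window). It was 45.8% for Rpl26, 61.0% for Rpl30, 46.8% for Rpl34 and 100% for Rps27. Among all the genes, 24 had every window copied and 5 (among them Rps3, Rps21 and Rpl32) had none, and the median level was 728.5 CPM in the first set and 887.6 in the second. The values of genes with such copies are uncertain, since reads from an exact copy cannot be told apart from reads of the gene, and the part of the copies in the low counts was not tested. The coding sequences of Rpl13a, Rps10 and Rpl24 lie over 50% within exons of another gene on the same strand and that of Rpl23a on the opposite strand, and the strand setting of the counting is not given in the sources used here.

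**Figure D1:**
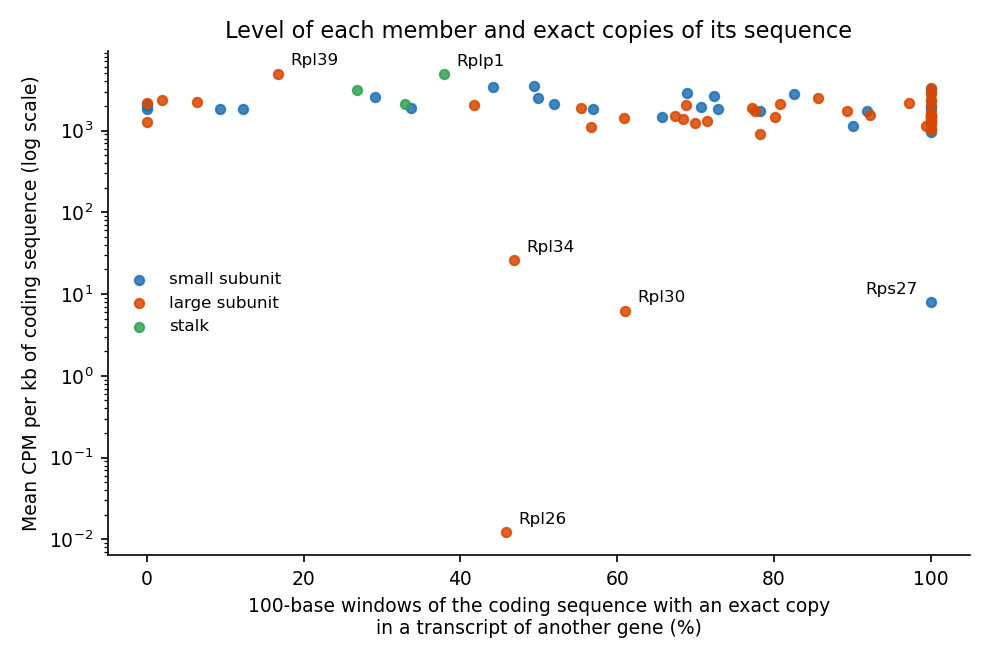
Mean level of each gene over the 8 libraries (CPM per kb of coding sequence, log axis) against the percentage of its 100-base coding windows that occur exactly in a transcript of another gene. Each point is a gene, coloured by subunit; Rpl26, Rpl30, Rpl34 and Rps27 lie far below the rest, while genes with 0% and with 100% copied windows lie in the same range.

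The replicates of a group differed in these genes as a body. In untreated IPO13+/+ cells 70 of the 72 well-counted genes were higher in library 2 than in library 1, with a median log2 ratio of 0.09. In treated IPO13-/- cells 71 of 72 were higher in library 2, with a median of 0.10. The shift was smaller in untreated IPO13-/- cells (0.05, 62 of 72 higher) and in treated IPO13+/+ cells (0.02, 55 of 72). Over 2247 other genes with a mean of at least 100 CPM the medians of the same ratios were -0.02, -0.01, -0.00 and 0.00. The 40 equally abundant subunits of the respiratory chain, another set of short mRNAs, had medians of 0.08 and 0.08 in the first 2 of these groups. The largest ratios belonged to Rps14, with 1041 and 1343 CPM in the untreated IPO13+/+ libraries (log2 ratio 0.37), and to Rps27a, which encodes a ribosomal protein fused to ubiquitin, with 938.5 and 1182 CPM (0.33). Rps21 followed with 412.1 and 494.2 CPM (0.26). The plot of the 72 genes by library shows this spread beside the differences between the groups.

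**Figure D2:**
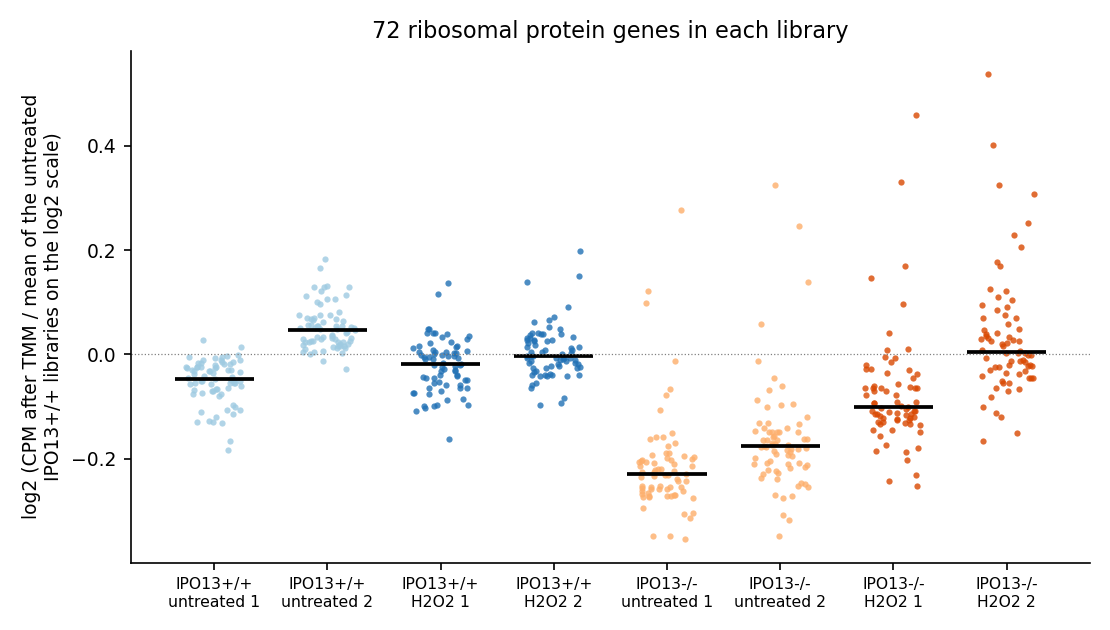
Level of each of the 72 well-counted ribosomal protein genes in each library, as log2 of CPM after TMM relative to the gene's mean over the untreated IPO13+/+ libraries. Points are genes, coloured by group, and black bars are medians over the genes; the 2 untreated IPO13-/- libraries have the lowest medians, and library 2 lies above library 1 in each group.

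The first question was whether the loss of IPO13 was accompanied by another level of these mRNAs without stress. In untreated IPO13-/- cells 67 of the 76 genes were lower and 3 were higher than in IPO13+/+ cells, with an edgeR quasi-likelihood adjusted p below 0.05. Among all 19424 genes tested, 19.4% were lower and 18.7% higher, and among the 2319 genes with a mean of at least 100 CPM, 45.5% were lower and 13.1% higher. The difference was small, with a median log2 fold change of -0.21 (a median change of -13.7%) and quartiles of -0.23 and -0.18. The median of the other abundant genes was -0.08. No member passed the study's additional limit of 2-fold, which 4.71% of all tested genes passed. Both IPO13-/- libraries lay below both IPO13+/+ libraries in 70 of the 76 genes and above them in 3, against 31.5% and 30.7% of all tested genes. The median was -0.21 in the small subunit (27 of 30 lower, 1 higher), -0.21 in the large subunit (37 of 43 lower, 2 higher) and -0.20 in the stalk (3 of 3 lower). The value depends on the scaling, since the median was -0.13 with library totals and no factors, and 49 genes were then lower, while 12.6% of all tested genes were lower and 25.7% higher. Without the first untreated IPO13-/- library the median was -0.16 and without the second -0.23, and fewer members were called in both of these fits.

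The largest falls among the well-counted genes were those of Rpl11, Rpl32 and Rps14. Rpl11, whose protein together with Rpl5 binds and restrains the p53 inhibitor MDM2 when ribosome assembly fails, had 756.3 and 877.4 CPM in IPO13+/+ and 639.8 and 640.2 CPM in IPO13-/- cells (log2 fold change -0.35, SE 0.05, edgeR adjusted p = 1.5e-06). It lies at chr4:136028265-136053428 (GRCm38). Rpl32, a large subunit protein gene at chr6:115805505-115808747, had 998.4 and 960.3 against 768.7 and 790.6 CPM (-0.33, SE 0.04, adjusted p = 1.76e-07). In both genes the IPO13-/- libraries were close to each other and clearly below the IPO13+/+ libraries. Rps14, a small subunit gene whose human counterpart is lost in a form of anaemia, had 1041 and 1343 against 924.4 and 976.3 CPM (-0.33, SE 0.07, adjusted p = 0.000385). Its IPO13+/+ libraries were themselves far apart, and the call was lost with DESeq2 and without the first untreated IPO13-/- library. The sparsely counted Rps27 fell by 0.39 on the log2 scale (149 and 176 against 143 and 106 counts before scaling, edgeR adjusted p = 0.0111), a call lost without the second library of either untreated group.

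Members with known roles outside the ribosome were lower as well. Rpl5 had 1324 and 1453 CPM in IPO13+/+ cells and 1190 and 1174 CPM in IPO13-/- cells (log2 fold change -0.23). Rpl23, another protein that binds MDM2, had 895.7 and 937.4 against 796.4 and 790.6 CPM (-0.21). Rps6, the small subunit protein that is phosphorylated when growth signalling is active, had 743.9 and 798.5 against 645.9 and 662.6 CPM (-0.24). For these 3 genes the groups did not overlap, and all passed the test. Rpsa, which is also a receptor for laminin, had 2294 and 2565 against 2071 and 2122 CPM (-0.21). Of the stalk genes, Rplp0 had 2864 and 3316 against 2639 and 2723 CPM (-0.20), Rplp1 1660 and 1823 against 1453 and 1622 CPM (-0.18) and Rplp2 729.6 and 804.0 against 664.8 and 671.2 CPM (-0.20). All 4 passed the test. The short Rpl41 had 851.3 and 879.3 against 714.8 and 763.3 CPM (-0.23) and Rpl39, which lines the exit tunnel of the growing protein, 712.8 and 853.8 against 654.6 and 654.6 CPM (-0.26).

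**Figure D3:**
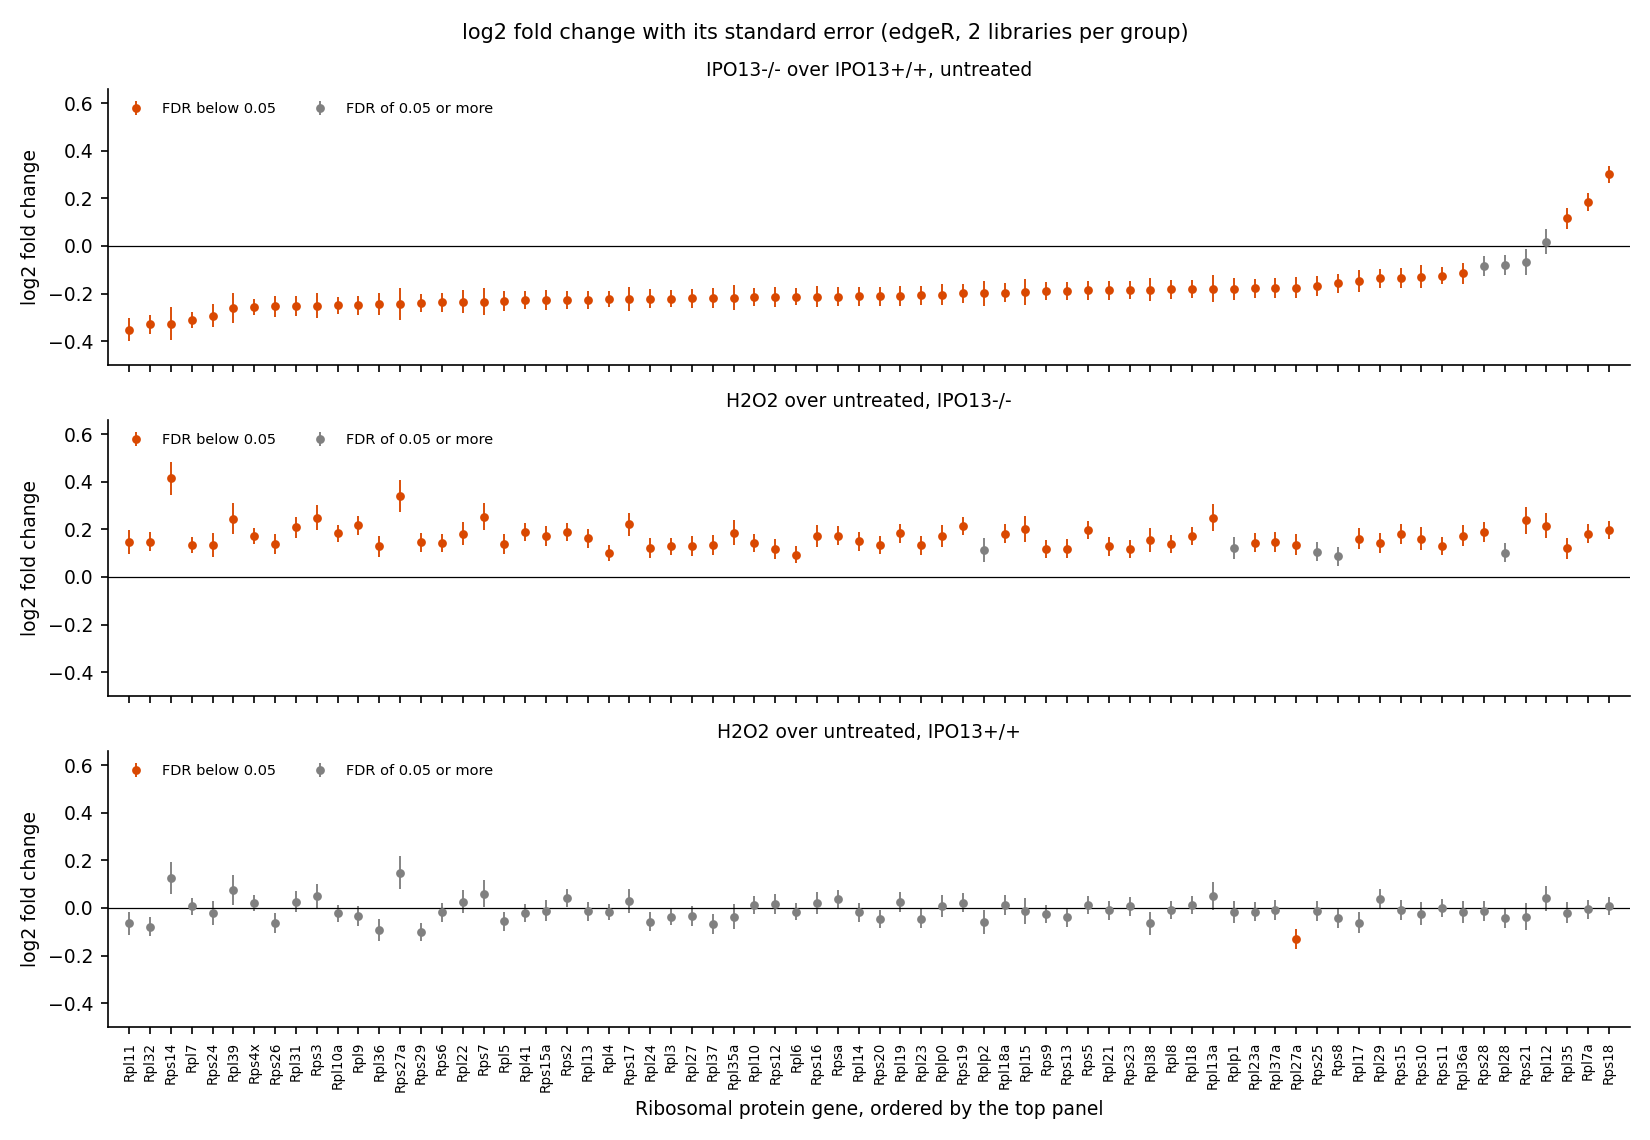
log2 fold change of each of the 72 well-counted genes, with its standard error, between genotypes without treatment (top), after H2O2 in IPO13-/- cells (middle) and after H2O2 in IPO13+/+ cells (bottom), in the order of the top panel. Orange points have an FDR below 0.05; nearly all genes lie below 0 in the top panel and above 0 in the middle panel, and around 0 in the bottom panel.

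The 3 genes that were higher were Rps18, Rpl7a and Rpl35. Rps18, at chr17:33951999-33956001 and coding for a protein in the head of the small subunit, had 955.9 and 997.9 CPM in IPO13+/+ cells and 1184 and 1223 CPM in IPO13-/- cells (log2 fold change 0.30, SE 0.04, edgeR adjusted p = 2.09e-07). It was the only well-counted member outside chromosome 2 with a positive value in untreated cells. Rpl7a (chr2:26910764-26913318), whose introns hold small nucleolar RNAs, had 1784 and 1880 against 1992 and 2172 CPM (0.18, SE 0.04, adjusted p = 0.000389). Rpl35 (chr2:39001580-39005624), a protein at the exit of the peptide tunnel, had 443.4 and 478.2 against 492.8 and 506.8 CPM (0.12, SE 0.04, adjusted p = 0.0368), a call lost with limma-voom, with DESeq2 and without any of the first untreated IPO13+/+, both treated IPO13+/+ and both untreated IPO13-/- libraries. The call of Rpl7a was lost without the second untreated IPO13-/- library. Rpl12, also on chromosome 2, was chosen after its values were seen. Rpl12 had 1447 and 1695 against 1552 and 1631 CPM (0.02) and Rps21 412.1 and 494.2 against 427.5 and 437.3 CPM (-0.07), and neither passed the test.

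The 4 members on chromosome 2 thus had log2 fold changes between -0.07 and 0.18 with a median of 0.07, while the 68 well-counted members elsewhere had a median of -0.21, and apart from Rps18 none of these was above -0.08. The other abundant genes of chromosome 2 were higher as well. The median of 172 such genes was 0.22, and 80.8% of them were called higher in IPO13-/- cells. On the other chromosomes that carry well-counted members, the medians of such genes lay between -0.16 and -0.03. After H2O2 the 4 members had a median genotype difference of 0.23 and the 68 others -0.04, a distance of 0.27 against 0.28 in untreated cells. The stress responses of the 4 genes lay within the range of the others (medians 0.20 and 0.15 in IPO13-/- cells). How many copies of chromosome 2 the cells carried was not tested.

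**Figure D4:**
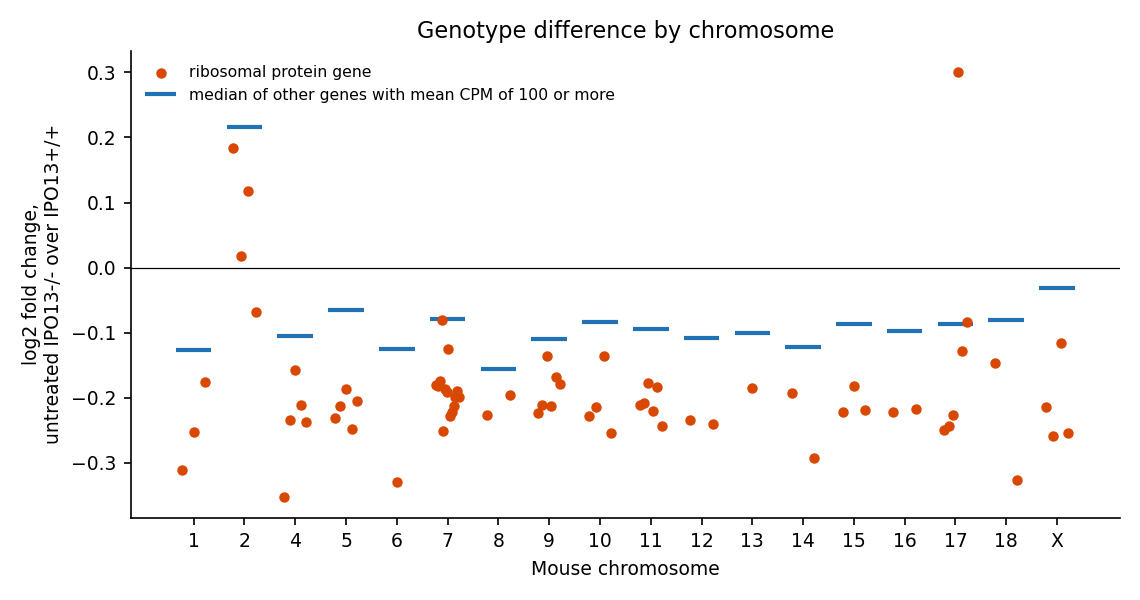
Genotype difference in untreated cells (log2 fold change, IPO13-/- over IPO13+/+) of the 72 well-counted ribosomal protein genes (orange points) by chromosome, with the median of the other genes with a mean of at least 100 CPM on that chromosome (blue bars). Chromosome 2 lies apart in both, and Rps18 on chromosome 17 is the highest point.

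The next comparison asked how the genes responded to oxidative stress in IPO13-/- cells. There 67 of the 76 genes rose after H2O2 and none fell, with an edgeR adjusted p below 0.05. The 2 untreated IPO13-/- libraries also entered the untreated genotype comparison above, so the 2 results are not independent. The interaction described below uses these libraries as well. Of all tested genes 14.9% rose and 14.4% fell, and of those with a mean of at least 100 CPM 25.1% rose and 18.5% fell. The median log2 fold change was 0.15 (a median rise of 10.9%), with quartiles of 0.13 and 0.19. The other abundant genes had a median of 0.00. All 72 well-counted genes had a positive value, against 1130 of the 2247 other abundant genes. All 72 were at an unadjusted p under 0.05, against 1184 of these 2247 and 7271 of the 19424 tested genes. None reached 2-fold, which 2.89% of all tested genes did. For 70 genes both treated libraries lay above both untreated libraries, against 29.9% of all tested genes. The number depends on single libraries. Without the first untreated IPO13-/- library 12 genes rose, against 9.66% of all tested genes, and without the second treated library 18 rose, against 11.4%, with medians of 0.13 and 0.11. The calls of Rps27a, Rps7 and Rps3, described next, were lost without the first untreated library and with DESeq2, and those of Rps7 and Rps3 also without the second treated library. Without the first treated library the median was 0.21.

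The largest rise was that of Rps14, from 924.4 and 976.3 to 1170 and 1364 CPM (log2 fold change 0.42, SE 0.07, edgeR adjusted p = 3.25e-05). Rps27a rose from 897.7 and 893.7 to 1033 and 1235 CPM (0.34, SE 0.07, adjusted p = 0.000331). Rps7, which is mutated in some families with Diamond-Blackfan anaemia, rose from 841.2 and 894.9 to 971.6 and 1097 CPM (0.25), and Rps3, at the channel through which the mRNA enters the ribosome, from 1330 and 1377 to 1508 and 1710 CPM (0.25). All 4 belong to the small subunit, but Rpl13a and Rpl39 of the large subunit rose nearly as much as Rps3 (0.25 each). The median was 0.17 in the small subunit, 0.15 in the large subunit and 0.12 in the stalk. In each of the 4 genes the treated libraries were further apart than the untreated ones. Rpl5 rose from 1190 and 1174 to 1253 and 1351 CPM (0.14), and Rpl11 from 639.8 and 640.2 to 683.8 and 733.9 CPM (0.15). Rpl23 went from 796.4 and 790.6 to 837.7 and 902.2 CPM (0.13), Rps6 from 645.9 and 662.6 to 711.9 and 733.8 CPM (0.14) and Rpsa from 2071 and 2122 to 2319 and 2409 CPM (0.17). All 5 passed the test. Of the stalk genes Rplp0 rose (2639 and 2723 to 2918 and 3126 CPM, 0.17), whereas Rplp1 (0.12, edgeR adjusted p = 0.0507) and Rplp2 (0.11, adjusted p = 0.107) did not pass. The short genes Rpl41 (0.19), Rpl39 (0.25), Rps28 (0.19), Rpl38 (0.15) and Rps29 (0.15) all rose. Among the sparsely counted genes Rpl30 had a log2 fold change of 0.21, Rpl34 of -0.01 and Rps27 of -0.17, and none passed.

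In IPO13+/+ cells the same treatment was followed by few changes. No gene rose and 1 fell at an edgeR adjusted p below 0.05, against 11.5% and 13.8% of all tested genes and 8.02% and 31.3% of those with at least 100 CPM. At an unadjusted p under 0.05 there were 3 genes, against 6674 of the 19424 tested genes and 1194 of the 2247 other abundant genes. The alternatives limma-voom and DESeq2 called none in either direction (3 and 2 at an unadjusted p under 0.05). The median log2 fold change was -0.02 with quartiles of -0.04 and 0.01, while the other abundant genes had a median of -0.07. The sign of the members' median depends on the scaling, being 0.02 with library totals. Both treated libraries lay above both untreated ones in 2 genes and below them in 11, against 25.2% and 30.6% of all tested genes, and no member passed the 2-fold limit, which 2.9% of all tested genes did. The gene that fell was Rpl27a, a large subunit gene at chr7:109519147-109522367, with 663.0 and 715.8 CPM before and 615.2 and 644.1 CPM after treatment (-0.13, SE 0.04, adjusted p = 0.0266). The call was lost with limma-voom, DESeq2, library totals, upper-quartile factors, TMM factors computed without the members, filterByExpr, thinning and a fit of the 4 IPO13+/+ libraries alone, and without any single library except the first untreated IPO13+/+ library. Rps29 had 573.7 and 587.1 against 538.3 and 544.3 CPM (-0.10, edgeR adjusted p = 0.058), and Rps27a 938.5 and 1182 against 1141 and 1209 CPM (0.15, adjusted p = 0.12). Rplp0 had 2864 and 3316 CPM before and 3110 and 3109 CPM after treatment (0.01). In Rplp0 and Rps27a the distance between the untreated libraries exceeded the difference between the group means. The direction of the calls turned with these libraries. Without the second untreated IPO13+/+ library 10 genes were higher and none lower, against 10.5% and 13.9% of all tested genes, and without the first 8 were lower and none higher, against 12.7% and 11.1%.

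After H2O2 fewer genes differed between the genotypes. In treated IPO13-/- cells 6 genes were higher and 9 lower than in treated IPO13+/+ cells (edgeR adjusted p below 0.05), against 19.1% and 17.5% of all tested genes, and the median log2 fold change was -0.03. Of the genes with a mean of at least 100 CPM, 20.6% were higher and 24% lower. The groups did not overlap in 8 genes that were higher and 21 that were lower, against 33.3% and 31.7% of all tested genes. None of the members passed the 2-fold limit, which 4.56% of all tested genes did. The 6 higher genes were Rps18 (982.1 and 981.8 CPM in IPO13+/+, 1342 and 1418 CPM in IPO13-/- cells, 0.49), Rpl7a (1826 and 1824 against 2305 and 2419 CPM, 0.37), Rpl35 (0.26), Rps21 (0.21), Rpl12 (0.19) and Rps28 (0.12). All 4 members on chromosome 2 are among them, and Rps18 and Rps28 lie on chromosome 17. The largest falls were those of Rps27 (147 and 158 against 108 and 95 counts before scaling, -0.47), Rpl7 (1805 and 1825 against 1588 and 1610 CPM, -0.18), Rpl11 (762.0 and 800.3 against 683.8 and 733.9 CPM, -0.14) and Rps24 (1425 and 1520 against 1270 and 1409 CPM, -0.14). All 9 genes that were lower here were also lower in untreated cells. Since 67 of the 76 were lower there, nearly any 9 members would overlap so, and nothing is read from it. The 3 that were higher in untreated cells were higher here. The 2 comparisons share no library. How many genes were called changed with the library left out. The median was 0.02 without the first treated IPO13-/- library and -0.09 without the second. The call of Rps27 was lost without the second treated IPO13-/- library.

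Whether the stress response differed between the genotypes was tested as an interaction. Its median over the 76 genes was 0.18 on the log2 scale, with a positive value in 75 of them. The 2247 other abundant genes had a median of 0.07, with 1874 positive. All 19424 tested genes had a median of 0.02, with 10408 positive. At an edgeR adjusted p below 0.05, 7 genes had a more positive response in IPO13-/- cells and none a more negative one, against 2.01% and 0.705% of all tested genes and 5.69% and 0.129% of those with a mean of at least 100 CPM. No member passed the 2-fold limit here, which 0.144% of all tested genes did. At an unadjusted p under 0.05 there were 67 members, against 2921 of the 19424 tested genes and 574 of the 2247 other abundant genes. The 7 genes were Rpl27a (0.27), Rpl9 (0.25), Rps29 (0.25), Rpl32 (0.23), Rpl41 (0.21), Rpl10a (0.21) and Rps18 (0.19). For Rps29, whose protein binds zinc, the untreated and treated levels were 573.7 and 587.1 against 538.3 and 544.3 CPM in IPO13+/+ cells and 480.7 and 502.4 against 528.7 and 559.0 CPM in IPO13-/- cells. In Rpl9 they were 893.3 and 966.5 against 891.5 and 925.3 CPM and 769.8 and 795.5 against 888.1 and 930.7 CPM. In both genes the untreated IPO13-/- libraries were the lowest. With library totals and no factors the median was 0.10 and none of the 76 passed, while 21 were at an unadjusted p under 0.05. In that fit 1.08% of all tested genes were more positive and 2.41% more negative. The number of members that passed depended strongly on single libraries. With 1 library left out the median ran from 0.11 to 0.22. It was lowest without the second treated IPO13-/- library and highest without the first untreated IPO13+/+ library.

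The members were then set beside other genes of like transcript length. Among 2247 other genes with a mean of at least 100 CPM, the median response to H2O2 in IPO13-/- cells was 0.15 for the 44 genes of 500 to 750 bases, 0.14 for the 60 genes of 750 to 1000 bases and 0.01 for the 474 genes of 2000 to 3000 bases, and it was -0.05 for the 468 genes over 5000 bases. In untreated cells the genotype difference of the same bins was -0.13, -0.14, -0.09 and -0.08. The 72 members had 0.15 and -0.21. The ratio of the replicates moved with length as well, from 0.08 for other genes of 500 to 750 bases to -0.12 for those over 5000 bases in untreated IPO13+/+ cells, and from 0.10 to -0.07 in treated IPO13-/- cells. Among the members alone the genotype median was -0.20 for the 12 shortest (under 500 bases) and -0.21 for the 19 over 1000 bases, and the medians after H2O2 in IPO13-/- cells were 0.18 and 0.14.

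A fit in which the length trend of each library was taken out was added after the data were seen. The trend was estimated on abundant genes that are not members. It includes the overall shift of these genes in each library, which the fit therefore took out too. In untreated cells 34 of the 76 genes were then lower in IPO13-/- cells, all of them among the 67, and 6 were higher, with a median of -0.07. In that fit 14.2% of all tested genes were lower and 27.5% higher. Rpl11 (-0.22), Rpl7 (-0.20), Rps24 (-0.20), Rps14 (-0.17) and Rpl32 (-0.17) had the largest falls among the well-counted genes, and Rps18 (0.45), Rpl7a (0.31), Rpl35 (0.24), Rpl12 (0.12), Rps21 (0.11) and Rps28 (0.09) were higher. After H2O2 in IPO13-/- cells 15 genes rose, each of them among the 67, and 2 fell, with a median of 0.03, while 13.7% of all tested genes rose and 20% fell. Rps14 (0.26), Rps3 (0.19), Rps27a (0.19) and Rps15a (0.18) had the largest values. Rps15a was chosen after its values were seen, and its annotated transcript (5130 bases) is far longer than its coding sequence (390 bases). In the interaction 1 gene, Rpl27a, was left, against 1.76% of all tested genes with a more positive response. The median of the members thus went from 0.15 to 0.03 after H2O2 in IPO13-/- cells and from -0.21 to -0.07 between the untreated genotypes. The median of the other abundant genes moved as well, from 0.00 to -0.02 and from -0.08 to -0.01. The distance of the members from these genes went from 0.15 to 0.05 and from -0.13 to -0.06. What gives rise to the trend was not tested.

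**Figure D5:**
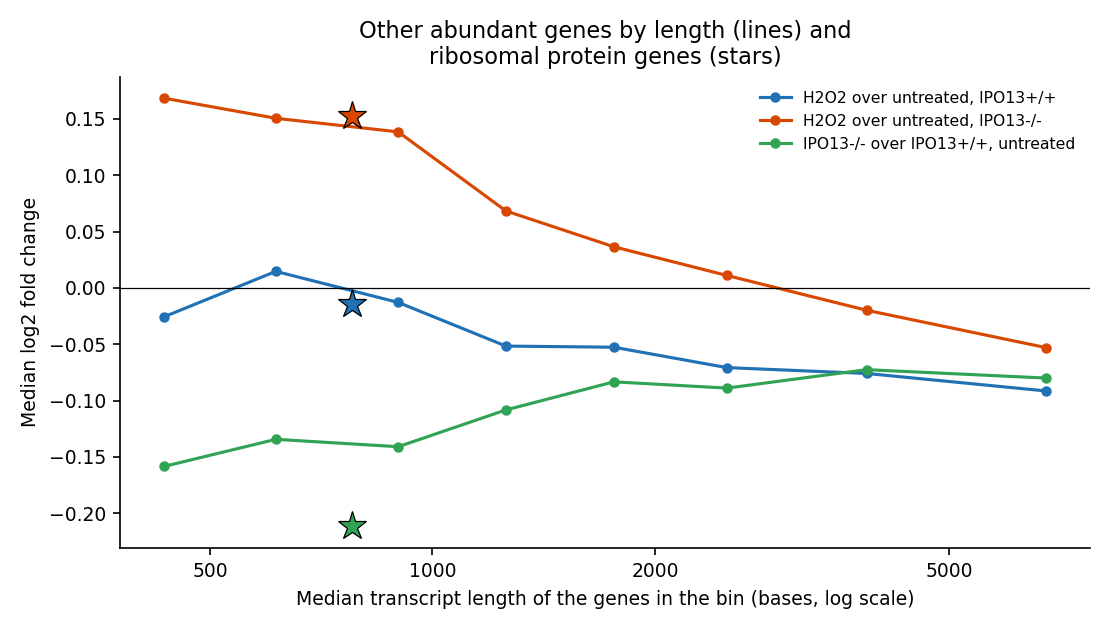
Median log2 fold change of other genes with a mean of at least 100 CPM in bins of transcript length (lines, length on a log axis) and of the 72 well-counted ribosomal protein genes at their median length (stars), for 3 comparisons. The stars for both responses to H2O2 lie close to the lines, and the star for the untreated genotype difference (-0.21) lies below its line (-0.13 and -0.14 in the neighbouring bins).

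Genes related to the ribosome were counted in the same fit, and all counts are at an edgeR adjusted p below 0.05. They stand against the shares of all tested genes and, in brackets, of those with a mean of at least 100 CPM. Between the untreated genotypes these were 18.7% higher (13.1%) and 19.4% lower (45.5%). After H2O2 in IPO13-/- cells they were 14.9% higher (25.1%) and 14.4% lower (18.5%). After H2O2 in IPO13+/+ cells they were 11.5% higher (8.02%) and 13.8% lower (31.3%). The lists were not matched to other genes by level. Nothing is read from a count near or between these shares. Examples below are the genotype counts of the mitochondrial ribosomal proteins and the numbers of respiratory chain subunits and of regulators that were lower. Of 21 translation factors and other mRNAs known for a terminal pyrimidine tract, 16 were lower in untreated IPO13-/- cells and none higher (median -0.15), and 8 rose and none fell after H2O2 in IPO13-/- cells (median 0.08). In IPO13+/+ cells 2 of them fell and none rose (median -0.05). Eif3l (-0.32), a subunit of an initiation factor, and Tpt1 (-0.30), a small abundant growth-related protein, fell most between the genotypes, and Eif3h (0.21) and Eef1b2 (0.20) rose most after H2O2 in IPO13-/- cells.

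Among 10 measured paralogues of ribosomal protein genes 2 were higher and 6 lower in untreated IPO13-/- cells. This list includes Rps15a-ps6, a row named as a pseudogene. Rpl39l, a testis-enriched copy of Rpl39, had 9.4 and 10.4 CPM in IPO13+/+ and 25.7 and 26.6 CPM in IPO13-/- cells (log2 fold change 1.40, SE 0.06, edgeR adjusted p = 9.79e-16), and after H2O2 the difference was 1.41. It was the only gene of this list that passed the 2-fold limit. The 79 subunits of the respiratory chain and ATP synthase that are encoded in the nucleus, many of them as short as the members, had 44 rises and no fall after H2O2 in IPO13-/- cells (median 0.14). In untreated cells 26 of them were lower and 8 higher in IPO13-/- cells (median -0.09). The 75 mitochondrial ribosomal proteins had 3 rises and 8 falls after H2O2 in IPO13-/- cells (median 0.01), with 11 higher and 17 lower in the genotype comparison (median -0.02).

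Of the 59 measured genes of ribosome biogenesis 29 fell and 1 rose after H2O2 in IPO13+/+ cells (median -0.11), and 12 fell and 4 rose in IPO13-/- cells (median -0.04). Rpf2, an assembly factor that brings Rpl5 and Rpl11 into the large subunit, fell in both (-0.22 and -0.19), and Utp20, of the small subunit processome, rose in both (0.25 and 0.26). Of 14 chaperones and importins of ribosomal proteins, 8 fell in treated IPO13+/+ cells and 8 were lower in untreated IPO13-/- cells, among them the importins Ipo5 (-0.33) and Ipo7 (-0.28). Of 21 regulators of ribosomal protein synthesis 1 was higher and 6 lower in untreated IPO13-/- cells. Myc, which drives ribosome production, had 56.4 and 56.4 CPM in IPO13+/+ and 37.4 and 36.2 CPM in IPO13-/- cells (-0.61), and Mdm2 was lower as well (-0.47) and rose after H2O2 in both genotypes (1.02 and 1.30). The 10 measured host RNAs of small nucleolar RNAs had 8 falls and no rise between the untreated genotypes (median -0.37), led by Snhg4 (-0.59) and Snhg3 (-0.51). After H2O2 in IPO13-/- cells 2 of them rose and 5 fell (median -0.21), unlike the members. In IPO13+/+ cells 4 fell and none rose (median -0.10). Of 6 listed pseudogenes of ribosomal proteins, 5 were measured and 1 rose after H2O2 in IPO13-/- cells. It was Rps15a-ps6 (0.45), which also stands in the list of paralogues.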

How the data were processed

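Poly(A) RNA of 8 libraries was sequenced as paired reads. Per the labels and the submitters' processing notes, reads were aligned to mm10 with STAR 2.3.1 and assigned to genes with HTSeq, and the authors deposited whole-number counts per gene symbol for each library beside CPM values. The strand setting is not given in the sources used here. The counts were tested here, and the deposited CPM served only to check that they follow from the counts. All 19424 genes that had a minimum of 1 count somewhere entered a single edgeR 4.0.16 quasi-likelihood fit (R 4.3.3) with TMM factors and 4 groups, with Benjamini-Hochberg adjustment over all genes and a threshold of 0.05. The common biological coefficient of variation was 3.36%. CPM in the text are after TMM. The test was checked on simulated counts drawn separately for each gene. That check does not cover shifts of many genes together between the libraries of a group.

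The members and gene lists were chosen with earlier results of these data known. Named members were the largest changes per comparison with groups that do not overlap, the extremes of level and of the replicate ratio, the shortest proteins and a list of members with known roles. Rpl12, Rpl34, Rpl13a, Rps10, Rpl24, Rpl23a and Rps15a were added after their values were seen. Replicates differed beyond sampling noise, so no library was counted as deposited in duplicate. Alternatives were limma-voom (limma 3.58.1), DESeq2 1.42.0, other scaling, filters and thinning, a replicate block, and leaving out each library. The fits with the length trend taken out were chosen after seeing the data. Lengths, coordinates and copies are from GENCODE M21 (GRCm38), in which 21751 of 23420 symbols were found. The result of 1 further gene list is not reported here.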

Additional observations from a re-analysis of the deposited data

Results flagged for a closer look

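In 7 of the 76 genes the response to H2O2 differed between the genotypes in the edgeR interaction test, being more positive in IPO13-/- cells. On the log2 scale the difference of the responses was 0.27 for Rpl27a (SE 0.06, adjusted p = 0.0137), 0.25 for Rpl9 (adjusted p = 0.0124) and 0.25 for Rps29 (adjusted p = 0.0106). It was 0.23 for Rpl32 (edgeR adjusted p = 0.0256), 0.21 for Rpl41 (0.0341), 0.21 for Rpl10a (0.0222) and 0.19 for Rps18 (0.0461).

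Each of these calls was lost under some of 19 other settings. The call was kept in 11 of the 19 for Rpl27a, in 9 for Rpl9, in 9 for Rps29, in 7 for Rpl10a, in 6 for Rpl32, in 3 for Rpl41 and in 2 for Rps18. Over these settings the edgeR, limma-voom or DESeq2 adjusted p ran from 3.98e-05 to 0.328 for Rpl27a and from 0.00276 to 0.653 for Rps18. The difference stayed positive in all 7 genes, with its lowest value at 0.04, for Rps18.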

How the results depend on the processing

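The sign of the median after H2O2 in IPO13+/+ cells turned with the untreated library left out. It was 0.03 without the second and -0.06 without the first. With DESeq2 3 genes were higher between the genotypes after H2O2, against 15.6% of all tested genes. A positive interaction was called for 4, against 1.45%. With limma-voom 5 were lower between the genotypes after H2O2, against 16.4% of all tested genes, and 2 had a positive interaction, against 1.1%. With library totals the median was -0.13 between the untreated genotypes and 0.10 for the interaction. In this interaction 0 members were called, against 1.08% of all tested genes higher and 2.41% lower. Upper-quartile factors gave 3 members with a positive interaction, against 1.42% of all tested genes. With edgeR's filterByExpr 5 genes were lower between the genotypes after H2O2, against 22.5% of all tested genes. In that fit 0 had an interaction, against 1.59% higher and 0.704% lower. After thinning to the smallest total 3 were higher and 5 lower between the genotypes after H2O2, against 17.3% and 15.7% of all tested genes. In the interaction 0 were called, against 0.925% higher and 0.165% lower. The cause was not tested.

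With the length trend taken out, 3 genes rose and 5 fell after H2O2 in IPO13+/+ cells, against 16% and 10.6% of all tested genes. In IPO13-/- cells 15 rose and 2 fell (median 0.03), against 13.7% and 20%. Between the genotypes 6 were higher and 34 lower without treatment (median -0.07), against 27.5% and 14.2%. After treatment 18 were lower, against 19%. A positive interaction was called for 1 (median 0.04), against 1.76%. With the replicate block added to this fit, 8 rose and 5 fell in IPO13+/+ cells, against 17.1% and 11.8%. In IPO13-/- cells 19 rose and 2 fell, against 14.4% and 21.4%. Between the untreated genotypes 6 were higher and 41 lower, against 28.6% and 15.1%, and 22 were lower after H2O2, against 20.1%.

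With the replicate block alone, 2 genes rose and 3 fell after H2O2 in IPO13+/+ cells, against 12.9% and 17% of all tested genes. Between the genotypes after H2O2 14 were lower, against 19.4%, and 59 had a positive interaction, against 4.56%. No other count moved by more than 1.5 times. The numbers do not pair the samples by any label, and deviations of same-numbered libraries over 2319 genes correlated between -0.141 and 0.794.

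Leaving out single libraries gave 0 to 10 rises and 0 to 8 falls after H2O2 in IPO13+/+ cells (median -0.06 to 0.03), and 12 to 72 rises in IPO13-/- cells (median 0.11 to 0.21). It gave 1 to 4 higher and 34 to 69 lower genes between the untreated genotypes (median -0.25 to -0.16), 3 to 8 higher and 2 to 13 lower after H2O2 (median -0.09 to 0.02), and 0 to 62 with an interaction (median 0.11 to 0.22). A group then holds 1 library, which is assumed to vary like the other groups. A planned denominator without mitochondrially encoded genes was not run. Thinning to the smallest total, done in 1 random draw, gave 48 rises in place of 67 after H2O2 in IPO13-/- cells. The median was 0.15 in both fits, and 13.3% of all tested genes rose after thinning.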
